A study of Homo sapiens with 3 samples.

Results

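The 10 genes described here encode the proteins that license DNA replication origins: MCM2, MCM3, MCM4, MCM5, MCM6 and MCM7, the subunits of the replicative helicase, ORC1, CDC6 and CDT1, which load it, and GMNN, which encodes geminin, the inhibitor of loading. They were chosen by name, as the rows of the gene table whose Ensembl identifier belongs to these symbols, and all 10 were found among the 58333 genes of the table. Gene expression was measured in Cal62 cells, a line derived from a thyroid cancer, by sequencing poly(A)+ RNA with 75-bp paired-end reads. The cells were grown in DMEM with fetal bovine serum and transfected, with Lipofectamine RNAimax, with a negative control siRNA (siControl) or with siRNA siADAR1 #1 or siADAR1 #2, both directed against ADAR, the gene of the RNA editing enzyme ADAR1. Each of the 3 transfections gave 2 libraries, which were taken as the 2 biological replicates of the study's methods, because the labels name 1 sample for each transfection. The time from transfection to RNA isolation was not found in the sources used here, and all values come from 1 cell line.

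Licensing is the step that limits DNA replication to a single round in each cell cycle. In late mitosis and G1 the origin recognition complex, of which ORC1 is the largest subunit, and the ATPase CDC6 bind origin DNA and, with CDT1, close rings of MCM2 to MCM7 around it. Each ring holds every subunit once and stays inactive until S phase, when kinases and the CDC45 and GINS proteins turn it into a moving helicase. Reloading in S and G2 is prevented by geminin, which binds CDT1, and by the degradation or export of CDT1, CDC6 and ORC1. In cycling cells most of these genes are transcribed at the G1/S boundary under E2F transcription factors, and the MCM genes are widely used as proliferation markers in tumours, thyroid tumours included.

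Because the members share this known mode of control, their promoters were searched for 4 octamers of the E2F type, TTTCCCGC, TTTCGCGC, TTTGCCGC and TTTGGCGC, on both strands, with matches allowed to overlap. RefSeq promoter windows (GRCh38.p14, 250 bases before to 50 after each transcription start) were at hand for 8 members, MCM4 and MCM5 being the others. At least 1 octamer was found for 7 of these 8 genes, against 1090 of the 27305 genes with a window (3.99%). By window, 7 of the 11 windows of these genes held one, against 1164 of 35116 (3.31%). The stretches below run 5′ to 3′ on the strand of the gene and show the octamers in capitals. Positions are counted from the start, where -1 is the last base before it and 1 the start itself. An octamer on the other strand appears as its reverse complement. This holds for MCM7 at -187 to -180, for CDT1 at -35 to -28 and for the second octamer of each overlapping pair. ORC1 is printed as the member without a match, and for genes with several windows the one that holds an octamer is printed. Only exact matches were counted, so the lack of one in ORC1 does not show that it has no site of the E2F type.
MCM2, chr3:127598311-127598424, plus strand, octamers at 3 to 10 and, on the other strand, 7 to 14: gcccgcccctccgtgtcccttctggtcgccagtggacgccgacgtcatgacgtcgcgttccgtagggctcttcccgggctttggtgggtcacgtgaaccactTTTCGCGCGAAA
MCM3, chr6:52284739-52284922, minus strand, octamers at -174 to -167 and -4 to 4: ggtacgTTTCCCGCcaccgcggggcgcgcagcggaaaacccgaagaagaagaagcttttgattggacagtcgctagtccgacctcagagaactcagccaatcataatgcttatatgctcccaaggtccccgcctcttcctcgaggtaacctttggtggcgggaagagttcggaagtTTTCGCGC
MCM6, chr2:135876444-135876601, minus strand, a pair of overlapping octamers from -152 to -141 and another from -90 to -79: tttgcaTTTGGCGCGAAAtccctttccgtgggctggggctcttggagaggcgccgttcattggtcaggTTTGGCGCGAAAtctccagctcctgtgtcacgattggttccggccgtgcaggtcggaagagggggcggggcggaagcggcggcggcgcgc
MCM7, chr7:100101398-100101590, minus strand, octamers at -187 to -180 and -9 to -2: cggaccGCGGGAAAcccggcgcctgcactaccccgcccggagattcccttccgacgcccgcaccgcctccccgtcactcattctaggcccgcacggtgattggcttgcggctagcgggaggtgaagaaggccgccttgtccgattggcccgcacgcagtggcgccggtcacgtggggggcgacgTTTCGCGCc
ORC1, chr1:52404424-52404523, minus strand, no octamer: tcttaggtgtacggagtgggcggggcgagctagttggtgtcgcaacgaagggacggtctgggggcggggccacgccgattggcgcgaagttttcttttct
CDC6, chr17:40287779-40287893, plus strand, octamer at 8 to 15: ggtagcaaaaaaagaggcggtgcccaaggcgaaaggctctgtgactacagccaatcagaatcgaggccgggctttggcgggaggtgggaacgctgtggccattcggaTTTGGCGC
CDT1, chr16:88803689-88803788, plus strand, octamer at -35 to -28: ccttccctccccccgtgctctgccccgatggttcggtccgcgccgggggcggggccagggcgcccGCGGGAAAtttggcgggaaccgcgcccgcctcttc
GMNN, chr6:24775313-24775412, plus strand, octamer at -80 to -73: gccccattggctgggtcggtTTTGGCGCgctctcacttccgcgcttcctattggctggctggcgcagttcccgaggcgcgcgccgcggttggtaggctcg
A match describes these letters only, and neither binding nor promoter activity was measured in these cells.

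The libraries held 30114840 to 50029763 reads assigned to genes. The normalized count of ADAR was 10906 and 11701 in the siControl libraries, 1328 and 2246 with siADAR1 #1, and 1663 and 2928 with siADAR1 #2, so that 15.8% and 20.3% of the siControl mean remained with siRNA #1 and #2. Of the thyroid markers, PAX8 and HHEX were expressed, thyroglobulin (TG) had 0 to 55 reads per library and SLC5A5 5 to 15 reads, and NKX2-1 had 0 reads in all 6 libraries, which allows up to 3 reads by counting error alone. PAX8, a thyroid lineage factor, fell by 1.99 on the log2 scale with siADAR1 #2. FOXE1, another thyroid factor, fell by 1.21 with the same siRNA, and TG and TSHR had log2FC of 2.86 and 0.47, not past the test. The epithelial keratins KRT8, KRT18 and KRT19, and EPCAM, were expressed in all libraries, whereas CDH1, another epithelial marker, had 25 to 193 reads per library. With siADAR1 #2 KRT18 fell by 0.85 and KRT19 rose by 1.18 on the log2 scale. With siADAR1 #1 KRT18 had a log2FC of 0.48, in the other direction, and KRT19 of 0.19, neither counted as a change by the thresholds below. Of 8 markers of blood, endothelial and stromal cells, CD3E had 0 reads in all libraries and PTPRC 0 to 5, whereas COL1A1 was lower with both siRNAs and CD68 higher with siADAR1 #2. The summed normalized count of the 8 markers was 6007 to 7164 in siControl, 3924 to 4353 with siADAR1 #1 and 3634 to 5478 with siADAR1 #2. Most of this sum was COL1A1 alone, at 6851 and 5545 in siControl, 3884 and 3243 with siADAR1 #1, and 2785 and 3866 with siADAR1 #2. Most of the rest was CD68. The part of all these markers in the results below was not tested. In bulk RNA, fewer cells that express a gene and less RNA in each cell cannot be told apart.

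All 10 licensing genes had lower normalized counts in the 4 siADAR1 libraries than in either siControl library, as did 16.6% of the 20858 genes tested. For ORC1 the margin was 1529 in siADAR1 #1 replicate 2 against 1530.0 in siControl replicate 1, which depends on the library scaling. The question put to the data was whether ADAR1 knockdown changed the expression of the licensing genes with each siRNA. A change was counted when the Benjamini-Hochberg adjusted p of limma, over all genes tested, was under 0.05 and the log2 fold change (log2FC) was beyond 0.5 in either direction, the thresholds of the study. With siADAR1 #1, 7 of the 10 genes fell (MCM2 to MCM7 and CDT1), against 10.6% of all genes called lower and 6.18% called higher. With siADAR1 #2 all 10 fell, against 15.5% of all genes lower and 11.1% higher. The median log2FC of the 10 genes was -0.71 with siRNA #1 and -1.13 with siRNA #2, where the medians over all genes were -0.02 and -0.01. Both comparisons use the same 2 siControl libraries. The 7 genes lower with both siRNAs compare with 711 genes, 3.41% of all genes tested.

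**Figure D1:**
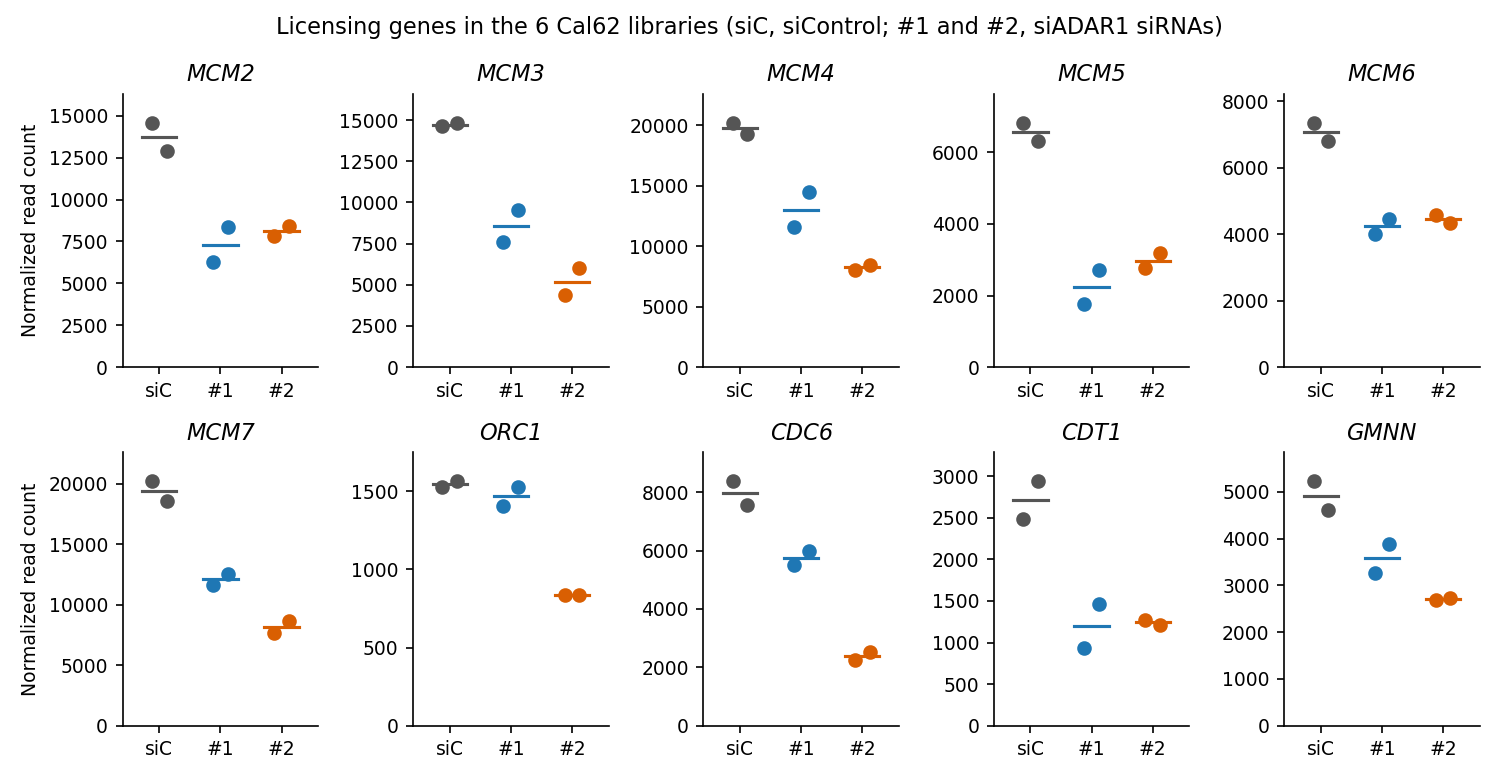
Normalized read count (vertical axes, starting at 0) of each licensing gene in the 6 libraries, with 1 point per library and a line at the mean of the 2 libraries of each group (siC, siControl; #1 and #2, the siADAR1 siRNAs). In every panel the 4 siADAR1 points lie below both siControl points; for ORC1 the points of siRNA #1 lie close to those of siControl, and for CDC6 those of siRNA #2 are far below those of siRNA #1.

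Among the helicase subunits, MCM2 (ENSG00000073111, chr3:127598410-127622436), part of the non-catalytic side of the ring and a substrate of the CDC7 kinase, had normalized counts of 14579 and 12913 in siControl, 6256 and 8349.6 with siADAR1 #1, and 7807 and 8403 with siADAR1 #2. The siADAR1 libraries lay well below the controls and the values of the 2 siRNAs overlapped. The log2FC of MCM2 was -0.92 (SE 0.15, limma BH-adjusted p = 0.0078) with siRNA #1 and -0.76 (SE 0.15, adjusted p = 0.0079) with siRNA #2. A non-coding RNA lies antisense to MCM2, and the strand setting of the counting was not given in the sources used here, so their reads cannot be told apart.

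For MCM3 (ENSG00000112118, chr6:52264014-52284881), which sits beside MCM5 in the ring, the counts were 14628 and 14836 in siControl, 7627 and 9533 with siRNA #1, and 4384 and 5991 with siRNA #2. No library of one group overlapped another group, and siRNA #2 gave the lowest values. MCM3 changed by -0.79 (SE 0.17, limma BH-adjusted p = 0.018) with siRNA #1 and by -1.52 (SE 0.17, adjusted p = 0.00078) with siRNA #2, on the log2 scale.

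MCM4 (ENSG00000104738, chromosome 8), a subunit whose N-terminal tail is phosphorylated when origins fire, had 20217 and 19284 normalized counts in siControl, 11576 and 14501 with siRNA #1, and 8074 and 8450.3 with siRNA #2. The groups again did not overlap, in the order siControl, siRNA #1, siRNA #2. Its log2FC was -0.61 (SE 0.13, limma BH-adjusted p = 0.017) and -1.26 (SE 0.13, adjusted p = 0.00058).

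MCM5 (ENSG00000100297, chr22:35400134-35425431), which forms with MCM2 the gate through which the ring opens, had 6819 and 6316 normalized counts in siControl, 1767 and 2712 with siRNA #1, and 2758 and 3176 with siRNA #2. This was the subunit with the lowest log2FC with siRNA #1, and all siRNA #1 values lay under those of siRNA #2. The log2FC of MCM5 was -1.58 (SE 0.20, limma BH-adjusted p = 0.0034) with siRNA #1 and -1.15 (SE 0.20, adjusted p = 0.0041) with siRNA #2.

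The counts of MCM6 (ENSG00000076003, chr2:135839626-135876443), a catalytic subunit that contacts CDT1 during loading, were 7352 and 6806 in siControl, 4016 and 4466 with siRNA #1, and 4566 and 4346 with siRNA #2. Here the 2 siRNAs overlapped and all 4 libraries were below both controls. MCM6 fell by 0.74 (SE 0.11, limma BH-adjusted p = 0.0062) with siRNA #1 and by 0.67 (SE 0.11, adjusted p = 0.0040) with siRNA #2, on the log2 scale.

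MCM7 (ENSG00000166508, chr7:100092233-100101940), a catalytic subunit and host gene of the microRNA MIR93, had 20217 and 18579.8 normalized counts in siControl, 11672 and 12538 with siRNA #1, and 7671 and 8685 with siRNA #2. MCM4 and MCM7 had the same number of reads, 18565, in siControl replicate 1 and different numbers in the other libraries. The 3 groups did not overlap, with log2FC of -0.68 (SE 0.11, limma BH-adjusted p = 0.0082) and -1.25 (SE 0.11, adjusted p = 0.00042). Exons of AP4M1, on the opposite strand, overlap MCM7, and their reads cannot be told apart without the strand setting; AP4M1 itself had 486 to 718 normalized counts.

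Of the loading factors, ORC1 (ENSG00000085840, chr1:52372829-52404423), an ATPase of the origin recognition complex, had 1530.0 and 1564 normalized counts in siControl, 1407 and 1529 with siRNA #1, and 838 and 835 with siRNA #2. The siRNA #1 libraries lay within a narrow margin below the controls, and the siRNA #2 libraries were far below both. With siRNA #1 the log2FC of ORC1 was -0.08 (95% interval -0.37 to 0.22, limma BH-adjusted p = 0.73), and with siRNA #2 it was -0.88 (SE 0.13, adjusted p = 0.0020).

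CDC6 (ENSG00000094804, chr17:40287879-40304657), the ATPase that completes the origin-bound platform for the helicase, had 8375 and 7566 normalized counts in siControl, 5505 and 6001 with siRNA #1, and 2235 and 2527 with siRNA #2. The groups did not overlap, and 29.9% of the siControl mean was left with siRNA #2, the lowest share of the 10 genes. Its log2FC with siRNA #2 was -1.74 (SE 0.12, limma BH-adjusted p = 0.00026). With siRNA #1 it was -0.47 (SE 0.12, adjusted p = 0.034), which did not reach the size threshold of 0.5.

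CDT1 (ENSG00000167513, chr16:88803789-88809258), which escorts the MCM ring to the origin, had 2481 and 2939.6 normalized counts in siControl, 937 and 1459.6 with siRNA #1, and 1269 and 1216 with siRNA #2. All siADAR1 libraries were far below both controls, and the 2 siRNAs overlapped because the siRNA #1 replicates stood apart. The log2FC of CDT1 was -1.21 (SE 0.21, limma BH-adjusted p = 0.0092) with siRNA #1 and -1.12 (SE 0.21, adjusted p = 0.0059) with siRNA #2.

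GMNN (ENSG00000112312, chr6:24774931-24786099), whose product geminin blocks CDT1, had 5223 and 4615 normalized counts in siControl, 3271 and 3878 with siRNA #1, and 2677 and 2735 with siRNA #2. Its 3 groups did not overlap. GMNN fell by 0.86 (SE 0.13, limma BH-adjusted p = 0.0024) on the log2 scale with siRNA #2, while its log2FC with siRNA #1, -0.46 (SE 0.13, adjusted p = 0.044), did not reach the size threshold.

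**Figure D2:**
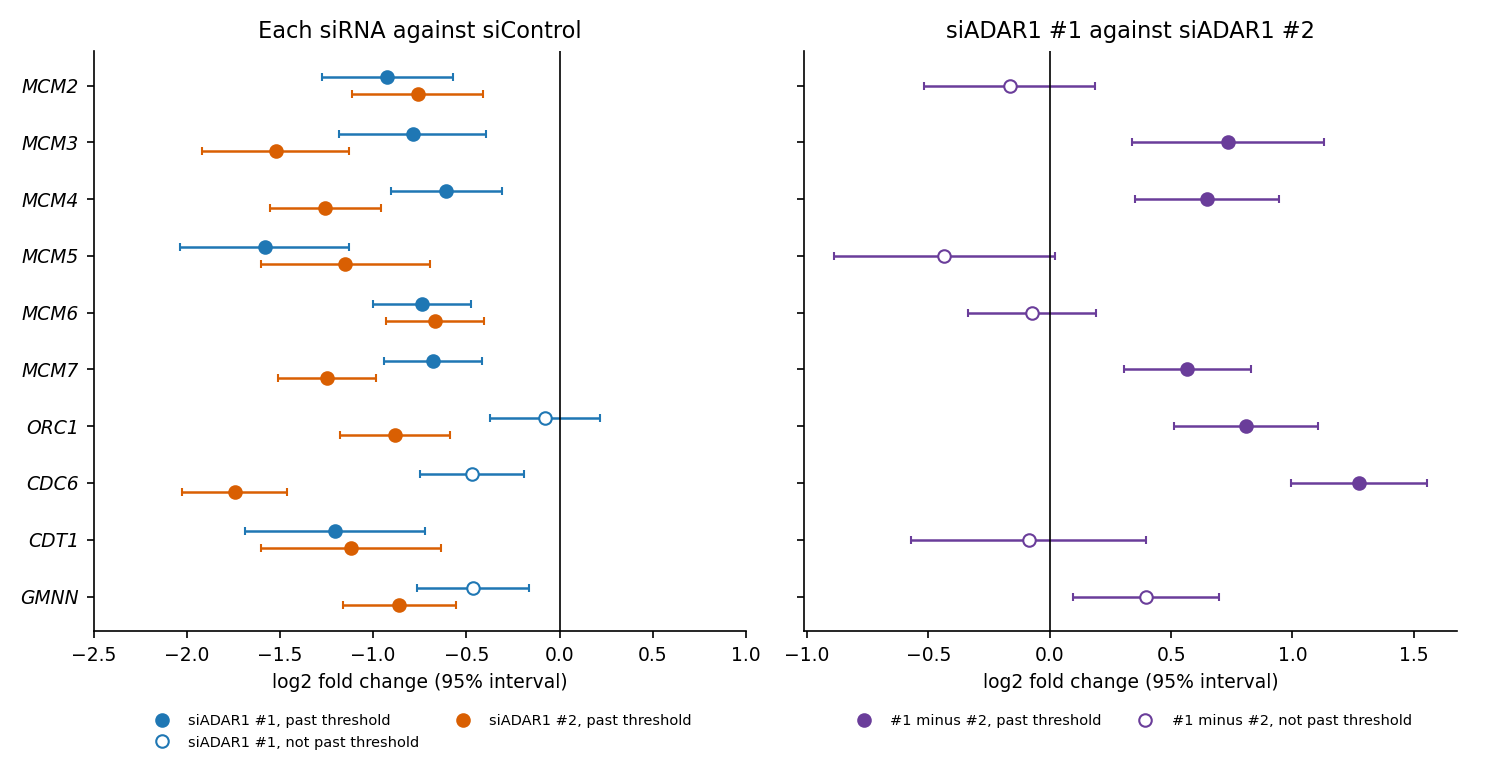
Log2FC (horizontal axes) of each licensing gene with its 95% interval from limma, on the left for each siRNA against siControl and on the right for siADAR1 #1 against siADAR1 #2; filled points passed both thresholds and open points did not. On the left all points lie below 0, and the interval of ORC1 with siRNA #1 includes 0; on the right MCM3, MCM4, MCM7, ORC1 and CDC6 lie above 0, with filled points.

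Some calls with siRNA #1 changed when a control library was left out. In such a fit the lone siControl library is assumed to vary like the other groups, which alone give the spread. Without siControl replicate 1, 0 of the 10 genes passed with siRNA #1 (limma, BH-adjusted p from 0.052 for MCM5 to 0.78 for ORC1, where 392 genes of all those tested passed), with log2FC between -1.53 for MCM5 and -0.09 for ORC1, and without siControl replicate 2, 4 passed. Without siADAR1 #1 replicate 1 the calls of MCM3 and MCM4 were lost, and without siADAR1 #1 replicate 2 CDC6 and GMNN were gained. The number called over all genes moved the same way. It was smaller without either siControl library or siADAR1 #1 replicate 1, and larger without siADAR1 #1 replicate 2. Over all alternatives the log2FC with siRNA #1 ran from -0.95 to -0.63 for MCM3 and from -0.77 to -0.45 for MCM4. With no filter on low values 0 passed with siRNA #1 and 5 with siRNA #2, and with no mean-variance trend in the fit 1 passed with siRNA #1, MCM5. When the libraries were centred on their medians, the median of all genes with siRNA #1 moved from -0.02 to 0.12 and the share of lower genes among those called from 63.2% to 46.7%, and 6 members passed, MCM4 at -0.46 no longer among them and ORC1 turning to 0.07. With siRNA #2 only MCM2 and CDT1 lost a call in fits that left out 1 library. Over all genes fewer passed with siRNA #2 when a siControl or siADAR1 #2 library was left out. MCM2 was lost without siControl replicate 1 (adjusted p = 0.067) or siADAR1 #2 replicate 1 (adjusted p = 0.055), and CDT1 without siControl replicate 2 (adjusted p = 0.056), all by limma with BH adjustment.

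The siRNAs were then compared with each other, to see whether they changed the licensing genes by the same amount. Compared directly, 5 of the 10 genes were higher with siADAR1 #1 than with siADAR1 #2 and 0 were lower, against 16.1% of all genes called higher and 16.7% called lower. The difference was 1.27 (SE 0.12, limma BH-adjusted p = 0.00034) on the log2 scale for CDC6, 0.81 (SE 0.13, adjusted p = 0.0022) for ORC1, 0.73 (SE 0.17, adjusted p = 0.012) for MCM3, 0.65 (SE 0.13, adjusted p = 0.0060) for MCM4 and 0.57 (SE 0.11, adjusted p = 0.0063) for MCM7. These are a helicase-loading ATPase, the origin-binding subunit and 3 subunits of the ring. GMNN, at 0.40 (95% interval 0.10 to 0.70, adjusted p = 0.046), did not reach the size threshold. For 4 genes the difference missed the test, which does not show that the siRNAs acted alike: the 95% interval was -0.52 to 0.19 for MCM2, -0.89 to 0.02 for MCM5, -0.34 to 0.19 for MCM6 and -0.57 to 0.40 for CDT1. ADAR itself differed by -0.35 between the siRNAs (95% interval -1.05 to 0.34). Without siADAR1 #2 replicate 1, 3 of the 5 differences passed (CDC6, ORC1 and MCM4). MCM3 and MCM4 did not pass without siADAR1 #1 replicate 2, where MCM5 passed at -0.74, and GMNN passed at 0.52 without siADAR1 #1 replicate 1.

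When the 4 siADAR1 libraries were compared as 1 group with siControl, 0 of the 10 genes passed, as did 0% of all genes in either direction. BH-adjusted p values of limma ran from 0.14 for MCM5 to 0.55 for ORC1, the smallest over all genes was 0.099, and 2916 genes had an unadjusted p under 0.05, MCM2 to MCM7, CDC6, CDT1 and GMNN among them. In this fit the difference between the siRNAs counts as spread. Taking instead the average of both changes from the fit with 3 groups, 9 of the 10 genes passed, ORC1 being the exception. In that fit 3585 of the 20858 genes tested passed, so the number called rose over all genes and not only for the members.

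The 6 subunits are built into the ring in equal numbers, so their transcripts were also compared with each other, per length. In siControl cells the level, as RPKM (reads scaled by the length of the canonical transcript and by the reads on genes in the library), was 156 ± 4.8 (SD, n = 2) for MCM7, 96.8 ± 5.5 for MCM4, 95.8 ± 9.6 for MCM3, 79.5 ± 0.34 for MCM2, 37.8 ± 1.4 for MCM5 and 37.5 ± 1.3 for MCM6. MCM4 and MCM3, and MCM5 and MCM6, were neighbours that did not differ beyond their spread. On the same scale GMNN stood at 77.4 ± 0.21, CDC6 at 34.7 ± 0.63, CDT1 at 20.4 ± 4.3 and ORC1, the lowest, at 9.89 ± 1.0. With siRNA #1 ORC1 stood at 9.92 ± 0.40, not below its siControl mean on this scale. The order depends on the length used: over all annotated exons MCM3, at 80.6 ± 8.1, came before MCM7, at 77.8 ± 2.4, and MCM5, at 17.98 ± 0.64, fell behind CDT1, at 19.7 ± 4.1.

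The share of each subunit in the summed MCM2 to MCM7 level was then taken. MCM5 made up 7.50% ± 0.071 (SD, n = 2) of the sum in siControl, 4.32% ± 0.75 with siRNA #1 and 7.49% ± 0.16 with siRNA #2. MCM2 took 15.8% ± 0.65, 14.3% ± 1.1 and 20.6% ± 0.54, and MCM6 7.45% ± 0.073, 7.65% ± 0.41 and 10.4% ± 1.2, in the same order. The share of MCM5 was below all other libraries in both siRNA #1 libraries, and the shares of MCM2 and MCM6 were above all others in both siRNA #2 libraries. MCM3 had 19.0% ± 1.0, 18.8% ± 0.54 and 14.7% ± 2.1, below all other libraries in both siRNA #2 libraries. MCM4, with 19.2% ± 0.22, 21.6% ± 0.66 and 17.8% ± 0.82, was above all others in both siRNA #1 libraries and below all others in both siRNA #2 libraries, and MCM7, with 31.1% ± 0.46, 33.3% ± 2.6 and 29.0% ± 0.28, lay in the same order, with 1 siRNA #1 library and 1 siControl library both at 31.4%. With 2 libraries against 2, an exact permutation test of such a share cannot go below 0.333. Across the 6 subunits the log2FC had an SD of 0.36 with siRNA #1, from MCM5 at -1.58 to MCM4 at -0.61, and of 0.33 with siRNA #2, from MCM3 at -1.52 to MCM6 at -0.67.

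**Figure D3:**
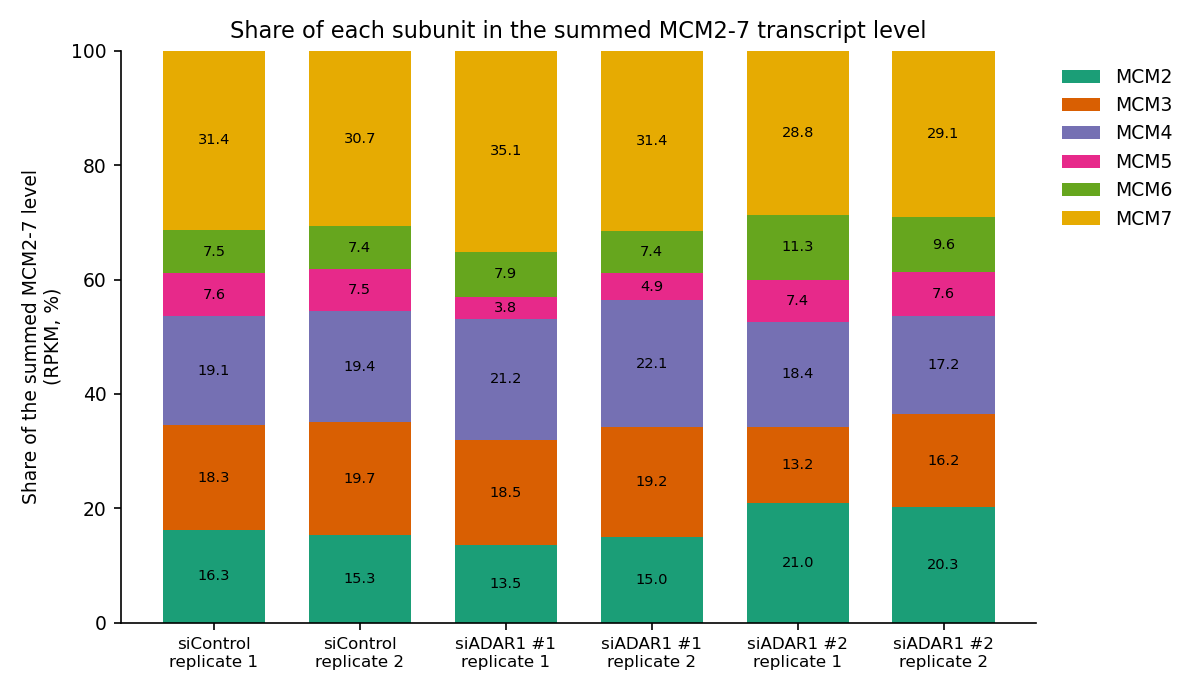
Share of each subunit (vertical axis, percent) in the summed MCM2 to MCM7 level, as RPKM over the canonical transcript, with 1 bar for each of the 6 libraries. MCM7 was the largest share in every library, the MCM5 segment was thinner in both siADAR1 #1 libraries, and the MCM2 and MCM6 segments were wider in both siADAR1 #2 libraries.

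CDT1 and its inhibitor geminin were compared within each library, which does not depend on library scaling. The difference of CDT1 minus GMNN on the log2 scale was -1.07 and -0.65 in siControl, -1.80 and -1.41 with siADAR1 #1, and -1.08 and -1.17 with siADAR1 #2. Both siRNA #1 libraries lay below all others, and the siRNA #2 libraries lay just below siControl replicate 1. The mean difference of the 4 siADAR1 from the 2 siControl libraries was -0.50 (exact permutation test, two-sided, p = 0.133, where the smallest possible p is 0.0667). Against siControl it was -0.74 with siRNA #1 and -0.26 with siRNA #2, and with 2 libraries in each group the exact p of 0.333 was the smallest possible. Without siControl replicate 2 the mean difference over all siADAR1 libraries was -0.29.

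The genes of the next step, origin firing, also fell with siRNA #2. All 15 genes of the list (the CDC7 and DBF4 kinase subunits, CDC45, the GINS subunits, MCM10 and the assembly factors of the active helicase) fell with siADAR1 #2, against 15.5% of all genes, with a median log2FC of -1.12. MCM10, which takes part in activating the loaded helicase, changed by -1.42 (SE 0.11, limma BH-adjusted p = 0.00030), MTBP, the partner of the firing factor TICRR, by -1.58 (SE 0.14, adjusted p = 0.00041), and the kinase gene CDC7, whose product phosphorylates the MCM ring, by -1.12 (SE 0.13, adjusted p = 0.00090). With siADAR1 #1, 4 of the 15 fell (CDC45, GINS1, GINS2 and DONSON), against 10.6% of all genes, and 0 rose, with a median of -0.29. Of the 3 genes named for siRNA #2, none passed with siRNA #1, where MCM10 had a log2FC of -0.20, MTBP of -0.07 and CDC7 of -0.29. All 3 differed between the siRNAs in the direct comparison (1.22, 1.51 and 0.83), but they were picked by their adjusted p with siRNA #2, which favours such a gap. Over the whole list 11 of the 15 genes were higher with siADAR1 #1 than with siADAR1 #2 and 0 lower, against 16.1% and 16.7% of all genes. The 4 calls with siRNA #1 became 0 without siControl replicate 1, 1 without siControl replicate 2 and 1 without siADAR1 #1 replicate 1. With no filter on low values 4 of the 15 passed with siRNA #2 and 0 with siRNA #1.

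Of the 8 other licensing factors (ORC2 to ORC6, LRWD1, MCMBP and KAT7), 4 fell with siADAR1 #2 and 0 rose, against 15.5% of all genes lower and 11.1% higher, with a median of -0.43. These were MCMBP, which encodes a protein that binds free MCM subunits, at -0.74 (SE 0.11, limma BH-adjusted p = 0.0020), and the origin recognition subunits ORC3, at -1.19 (SE 0.17, adjusted p = 0.0021), ORC6, at -0.71 (SE 0.16, adjusted p = 0.013), and ORC5, named after its value was seen, at -0.57. With siADAR1 #1, 0 fell and 1 rose, against 10.6% of all genes lower and 6.18% higher. It was LRWD1, at 0.52 (SE 0.13, limma BH-adjusted p = 0.027), which encodes a protein that binds the origin recognition complex. The LRWD1 call was lost in the fits without siControl replicate 1, without siControl replicate 2 and without siADAR1 #1 replicate 1. Without siADAR1 #2 replicate 1, 2 genes of the list passed with siRNA #2.

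Of 9 genes that control the turnover of CDT1, CDC6 and geminin, 5 fell with siADAR1 #2 and 0 rose, against 15.5% of all genes lower and 11.1% higher. DTL, the substrate receptor through which CDT1 is degraded on replicating chromatin, had 6480.5 and 5697 normalized counts in siControl, 5106 and 4815 with siRNA #1, and 1129 and 1327 with siRNA #2. The siRNA #2 libraries lay far below the rest, at a log2FC of -2.31 (SE 0.13, limma BH-adjusted p = 0.00025), against -0.29 (adjusted p = 0.17) with siRNA #1. CKS1B and SKP2, which encode parts of the SCF ubiquitin ligase that also targets CDT1, changed by -1.33 (SE 0.14, adjusted p = 0.00057) and -1.18 (SE 0.16, adjusted p = 0.0014) with siRNA #2, and by 0.29 and -0.40, not past the test, with siRNA #1. With siRNA #1, 2 genes fell, against 10.6% of all genes, of which CCNF also fell with siRNA #2, by 0.84 on the log2 scale. They were CCNF, the ubiquitin ligase subunit for CDC6, at -1.12 (SE 0.14, limma BH-adjusted p = 0.0038), and FZR1, at -0.5005 (SE 0.14, adjusted p = 0.039), barely past the size threshold. FZR1 encodes an activator of the anaphase-promoting complex that acts on geminin and CDC6. The number called in this list with siRNA #1 was lower in 12 of the 18 alternative fits. With siRNA #1, 0 passed without siControl replicate 1 and 1 without siControl replicate 2, without siADAR1 #1 replicate 1 or without either siADAR1 #2 library.

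Of 6 genes for the removal of the helicase after replication, 1 fell with each siRNA and 0 rose, a share near those of all genes (10.6% lower with siRNA #1 and 15.5% with siRNA #2). LRR1, the substrate receptor that recognizes the terminated helicase, fell by 1.08 (SE 0.15, limma BH-adjusted p = 0.0019) with siRNA #2. FAF1, a cofactor of the VCP unfoldase, fell by 1.07 (SE 0.21, adjusted p = 0.013) with siRNA #1. Neither passed with the other siRNA, where LRR1 had a log2FC of -0.49 (adjusted p = 0.064) and FAF1 of 0.10 (adjusted p = 0.76). Both differed in the direct comparison of siADAR1 #1 with siADAR1 #2, LRR1 by 0.60 and FAF1 by -1.17. There 2 genes of the list were higher and 1 lower, against 16.1% and 16.7% of all genes. FAF1 was not called without siControl replicate 1 or without siControl replicate 2, and 3 genes of the list passed without siADAR1 #1 replicate 2. VCP, the unfoldase itself, had log2FC of 0.09 and -0.26 with siRNA #1 and #2, neither past the test.

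**Figure D4:**
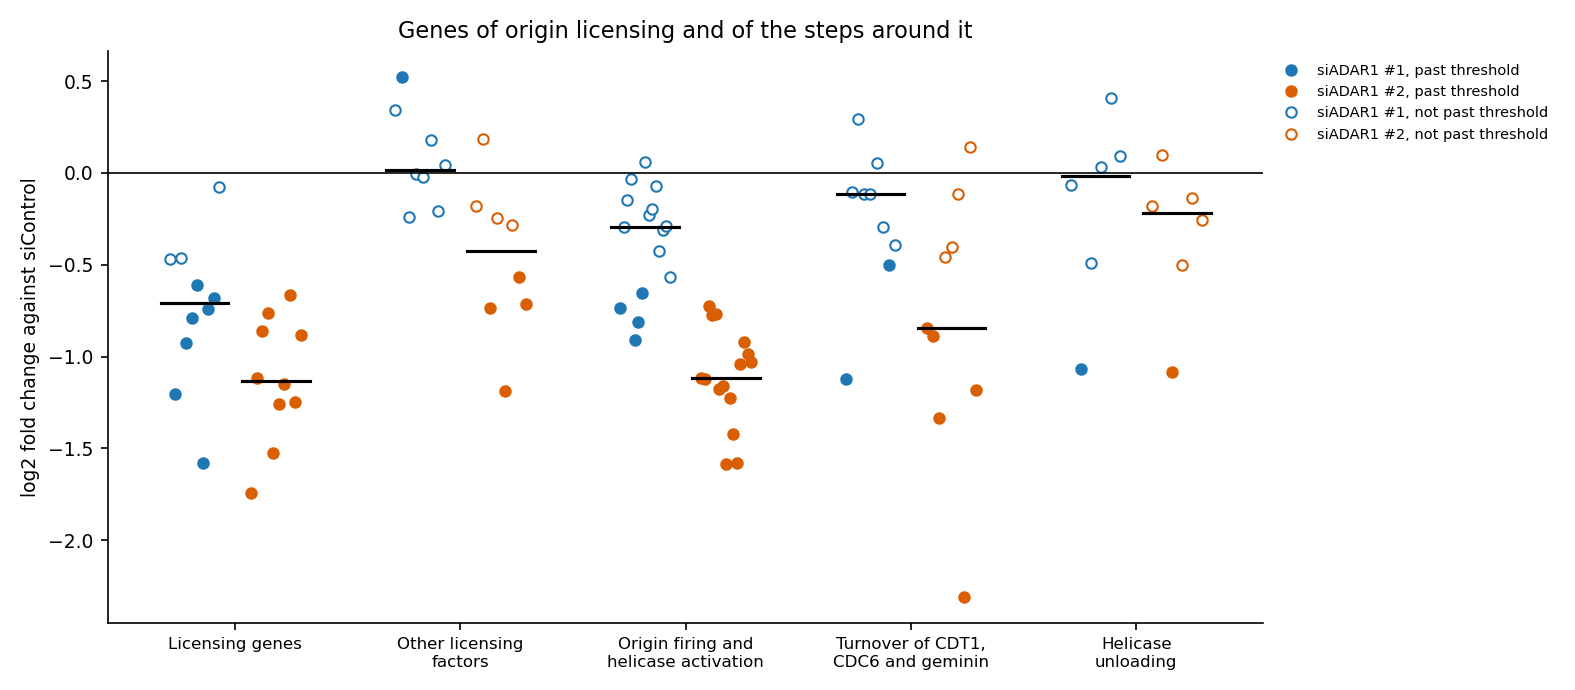
Log2FC against siControl (vertical axis) of each gene of the 5 lists, in blue for siADAR1 #1 and orange for siADAR1 #2; filled points passed both thresholds, open points did not, and black lines are medians. The 15 origin firing genes are all filled for siADAR1 #2, with a median of -1.12 beside -1.13 for the 10 licensing genes, while for siADAR1 #1 their median is -0.29 beside -0.71.

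The genes with the profile most like the mean of MCM2 to MCM7 were taken from 20848 tested genes outside the members, by the root mean square difference over the 6 libraries of the log2 value minus the siControl mean. They were SDHAF3 (0.020), an assembly factor of mitochondrial complex II, SMC4 (0.059), a condensin subunit, PPDPF (0.064), PCBD2 (0.065), GINS1 (0.070), a subunit of the active helicase, and MAP3K3 (0.072), a kinase of the MAPK pathway. The median over all genes compared was 0.902. SDHAF3 changed by -0.88 and -1.10 with siRNA #1 and #2, beside means of -0.89 and -1.10 for the 6 subunits. The likeness was measured over 6 libraries of 3 groups only and is a description.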

How the data were processed

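Poly(A)+ RNA of Cal62 cells (siControl, siADAR1 #1, siADAR1 #2; 2 libraries each) was sequenced on an Illumina NextSeq. Adapter trimming used Atropos, and featureCounts gave the reads per known gene, on GRCh38 according to the submitters' processing notes, which also name FastQC and Salmon. The authors scaled gene counts with the size factors of DESeq2, for which their methods give preference to estimates from Salmon through Tximport, and which of the counts made this table was not given in the sources used here. The deposited values are log2 values from a variance-stabilizing transformation of normalized counts. Undoing it gave whole reads for 100% of values (tolerance 0.1), from which normalized counts, scaled by the deposited size factors, and levels per length (RPKM, GENCODE lengths) were computed. All 6 columns were used (0 unused).

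The log2 values were fitted with limma 3.58.1 in R 4.3.3 (lmFit, eBayes with trend, two-sided, Benjamini-Hochberg over 20858 genes whose mean passed a filter set at 10 normalized counts, 7.62 on the recovered scale) as 3 groups (3 residual degrees of freedom) or 2 groups (4). All 10 members passed the filter. SE and 95% intervals come from this fit. Its calls and log2FC, but not its SE or intervals, were checked on simulated data with the same dispersion for all genes. With 2 libraries a group, p-values measure the spread between these libraries only. Alternatives changed the filter, scaling, log scale, test, GC and length trend, replicate block and libraries. Identifiers were paired with symbols for 57830 genes, and 503 had none.

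The members, gene lists and tests were chosen with earlier results of these data known. Beyond the 10 members and ADAR, up to 3 genes from a list were to be named, by smallest adjusted p with siADAR1 #2, plus the 6 genes nearest in profile; further genes called in small number are named after their values were seen.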

Additional observations from a re-analysis of the deposited data

Results flagged for a closer look

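The effects of the 2 siRNAs differed in the direct limma comparison for 5 licensing genes, each higher with siADAR1 #1 than with siADAR1 #2 in both libraries. The difference of siADAR1 #1 minus siADAR1 #2 on the log2 scale was 1.27 for CDC6, 0.81 for ORC1, 0.73 for MCM3, 0.65 for MCM4 and 0.57 for MCM7. Of all genes, 16.1% were higher with siADAR1 #1 by the same thresholds. Groups of 2 libraries were too small to search for a library far from the others.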

How the results depend on the processing

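Of the alternatives run for the members, 654 results kept their direction and side of the thresholds, 43 lost and 15 gained a call, and 8 changed sign. These include the comparison of both siRNAs as 1 group, where 0 members were called and no call could be lost. With siRNA #1 the call was lost most often for MCM4 (6 of 18 alternatives), MCM3 (5) and CDT1 (4). Without a filter, 58333 genes were tested and 0, 5 and 2 members passed for siRNA #1, siRNA #2 and their difference (7, 10 and 5 with it), and over all genes 548 and 2103 passed with siRNA #1 and #2, beside 3502 and 5541, and 3221 beside 6838 between the siRNAs. Without a mean-variance trend in eBayes, 1 member and 1347 genes passed with siRNA #1. Leaving out 1 library in turn gave 0 to 9 members with siRNA #1, 3 to 6 for the difference between the siRNAs and 9 to 10 with siRNA #2. Over all genes with siRNA #1, 392 passed without siControl replicate 1, 1248 without siControl replicate 2 and 1412 without siADAR1 #1 replicate 1, and with siRNA #2, 3150 without siControl replicate 1 and 3242 without siADAR1 #2 replicate 1, beside 5541. With both siRNAs as 1 group 0 members passed, 9 when the average of both changes was taken from the fit with 3 groups, where 3585 genes passed; without a filter 159 genes passed in the former. Small differences changed sign: ORC1 with siRNA #1 was 0.0686 with centring on medians and 0.0338 with quantile normalization, and between the siRNAs MCM6 was 0.0558 and CDT1 0.0421 with centring, and CDT1 0.138 with the GC content and length trend removed. Between the siRNAs, leaving out 1 library gave -0.372 to 0.0438 for MCM2, -0.149 to 0.0035 for MCM6 and -0.406 to 0.232 for CDT1. Why results changed between these fits was not tested. Of the genes called between the siRNAs, 51.0% were lower with siRNA #1, and 40.0% with centring on medians; with siRNA #1 against siControl the share was 63.2%, 52.3% with quantile normalization and 38.5% without a filter. In the fit with a replicate block 7, 10, 5 and 0 members passed in the 4 comparisons, the same numbers as without it; the replicates share only a number, and differences between replicates correlated by 0.11 to 0.16 across genes between groups. The fewest reads of a member in a library were 570, for ORC1 in siADAR1 #2 replicate 2, and whether this depth or the 2 libraries per group limited the precision more was not tested.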

Other observations

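MCM8, a relative of the MCM subunits that acts in homologous recombination and is no part of the MCM2 to MCM7 ring, was lower with both siRNAs, with a log2FC of -0.74 (SE 0.20, limma BH-adjusted p = 0.039) with siADAR1 #1 and -1.34 (SE 0.20, adjusted p = 0.0024) with siADAR1 #2. Its partner MCM9 had log2FC of 0.06 and 0.43, neither past the test. Of the relatives of geminin, MCIDAS had log2FC of -0.55 and -0.67 with siRNA #1 and #2, neither past the test, and GMNC had 0 to 2 reads per library and was not tested.

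Of the members, 4 have a protein-coding gene on the opposite strand whose start lies within 1000 bases of their own. These neighbours were looked up by position, among protein-coding genes only, after the values of the members were known. TPRA1, whose start is 143 bases from that of MCM2, had 1301 and 1207 normalized counts in siControl, 1463 and 1589 with siRNA #1, and 2909.7 and 2434 with siRNA #2. It rose with siADAR1 #2 (log2FC 1.09, SE 0.14, limma BH-adjusted p = 0.0013), where MCM2 fell, and had a log2FC of 0.28 (adjusted p = 0.21) with siADAR1 #1. PRKDC, the DNA repair kinase gene 7 bases from the start of MCM4, had log2FC of -0.44 (adjusted p = 0.024) and -0.40 (adjusted p = 0.022), under the size threshold. AP4M1, 391 bases from MCM7, had -0.34 and 0.19, and PRPF38A, 179 bases from ORC1, had -0.01 and 0.16, none past the test.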
